A study of Mus musculus with 7 samples.

Results

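The genes described here are the receptors, transducers, TCF factors and feedback genes of Wnt signalling, 44 genes given by name, among the 52636 Ensembl genes counted in mouse liver endothelium. All 44 had a row in the count table, and 33 passed the filter on low counts and were tested. Wnt ligands were not included. The libraries were polyadenylated RNA of endothelial cells isolated from mouse liver by fluorescence-activated sorting, 3 from mice labelled Control and 4 from mice labelled c-Maf KO, a knockout of the transcription factor gene Maf. The labels give neither the age nor the strain of the mice, and they do not name the deleted part of the gene or what drives the deletion. Nothing says that the libraries came from separate mice, so the spread behind each p-value is that of the 7 libraries and may be technical.

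A Wnt ligand binds a Frizzled receptor together with the co-receptor LRP5 or LRP6. Dishevelled proteins then disable the complex of Axin, APC and glycogen synthase kinase 3 that otherwise sends beta-catenin to degradation, and beta-catenin binds TCF factors on DNA. In the liver, endothelial cells of the central vein are known as a source of Wnt ligands for the neighbouring hepatocytes. Their own use of the pathway depends on the receptors and feedback inhibitors they express.

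Counts per library ran from 24772716 to 32960007. Levels are CPM, read counts scaled to library size and by the trimmed mean of M-values (TMM), with mean and SD over 3 controls and 4 KO libraries, and differences are log2 fold changes of KO over control. Rose and fell mean an adjusted p under 0.05 in edgeR's quasi-likelihood test with Benjamini-Hochberg adjustment over 15512 genes, and every adjusted p below is from that test unless another fit is named. By the lane in their labels, control 3 and KO 3 belonged to lane 4 and the other libraries to lane 5. Maf stood at 1664, 2088 and 2147 CPM in controls 1 to 3 and at 28.9, 159, 125 and 37.7 CPM in KO 1 to 4. Of 12 pan-endothelial markers 7 fell and 1 rose, and their summed level was 26410 to 28490 CPM in controls and 14080 to 19770 CPM in KO libraries. Of 10 sinusoidal markers 8 fell and 0 rose, with sums of 35990 to 39890 and 7632 to 12520 CPM. In these bulk samples, fewer cells of a type and less RNA per cell cannot be told apart. Hepatocyte markers summed to 316 to 405 CPM in controls and to 1816, 451, 501 and 870 CPM in KO 1 to 4, and 9 of 16 rose.

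Among the 33 tested members, 12 fell, 4 rose and 17 did not pass. Over all tested genes 22.2% fell and 23.0% rose, together 45.2%, against 36.4%, 12.1% and 48.5% of the members. The share of members that changed was thus near that of all genes. The median log2 fold change of the tested members was -0.16, beside 0.04 over all tested genes. In 14 members every KO library lay below every control and in 5 every KO library lay above, and over all genes the groups did not overlap in 50.3%. The split depends on the scaling. With library totals in place of TMM 10 members rose and 9 fell, with upper-quartile factors 9 rose and 10 fell, and the median log2 fold change of all genes moved from 0.04 to 0.31 and 0.17. All changes given here are on the TMM scale.

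**Figure D1:**
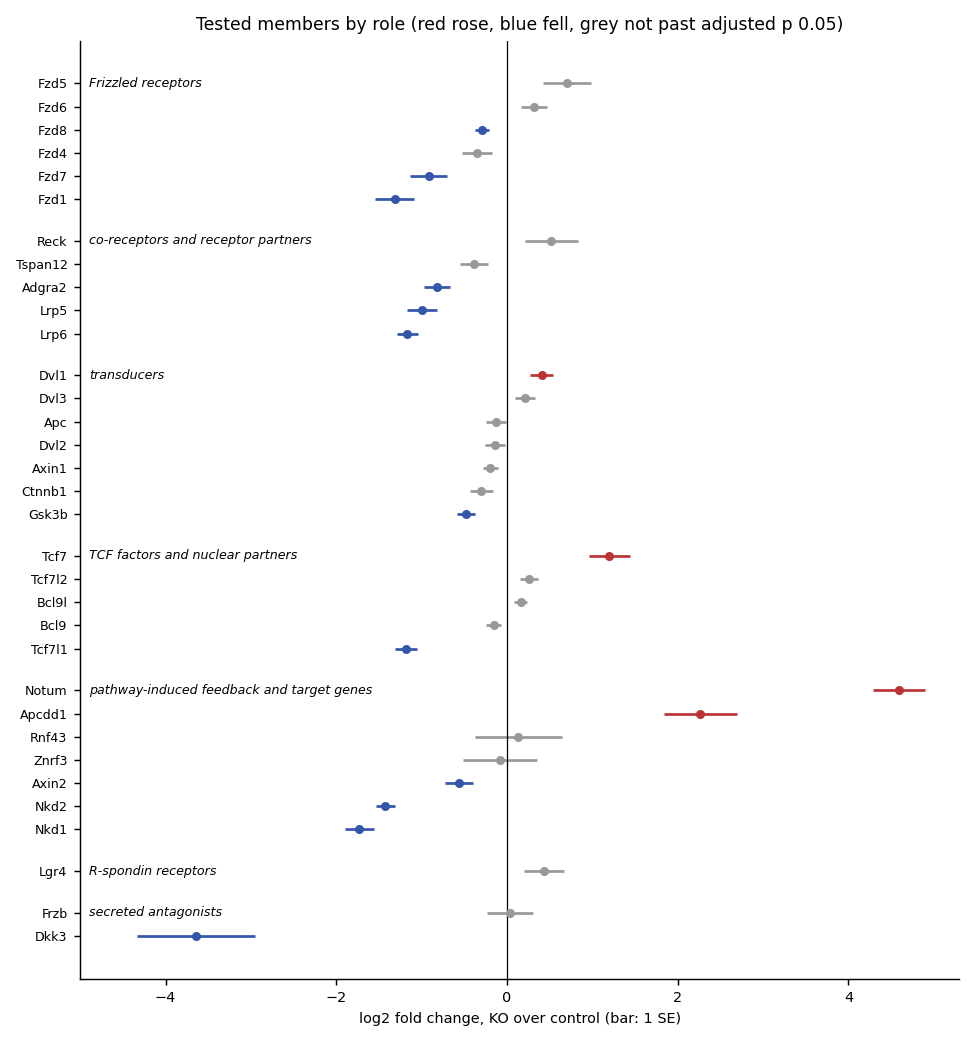
Log2 fold change of KO over control (x axis) for the 33 tested members (y axis), grouped by role, with bars of 1 SE; red points rose, blue points fell and grey points did not pass an adjusted p of 0.05. Dkk3 lies farthest to the left at -3.64 and Notum farthest to the right at 4.60, while the transducers lie between -0.48 and 0.41.

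Frizzled receptors bind the ligand. Per kilobase of exon, which allows levels of different genes to be compared, Fzd4 was the most abundant in every library. It stood at 96.9 ± 25.3 CPM per kb in controls and 75.9 ± 5.91 in the KO, and made up 80.0% ± 6.22 and 76.6% ± 0.417 of the summed Frizzled level (SD, n = 3 and 4). Fzd8 and Fzd6 followed at 9.38 ± 0.303 and 9.09 ± 1.91 CPM per kb in controls, a difference within their spread. Then came Fzd1 at 1.79 ± 0.235 and Fzd5 at 1.76 ± 0.184, also within their spread, and Fzd7 at 0.915 ± 0.0879. The remaining Frizzled genes were barely counted: Fzd2, Fzd3, Fzd9 and Fzd10 had 11, 13, 1 and 0 counts over the controls and 6, 6, 2 and 1 over the KO libraries, and none was tested.

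Of the 6 tested Frizzled genes 3 fell and 0 rose. Fzd1, on chromosome 5, measured 6.41, 7.87 and 8.29 CPM in controls 1 to 3 and 3.01, 3.00, 4.05 and 2.04 CPM in KO 1 to 4. All KO libraries lay below all controls, a log2 fold change of -1.31 (SE 0.229, adjusted p = 0.00175). Fzd7, on chromosome 1, measured 3.97, 3.87 and 4.61 CPM in controls and 2.41, 2.47, 2.39 and 1.51 CPM in the KO (log2 fold change -0.92, SE 0.217, adjusted p = 0.00803). KO 4 was the lowest of all. Fzd8 measured 57.6, 56.5 and 54.04 CPM in controls and 48.3, 46.1, 47.2 and 41.6 CPM in the KO (log2 fold change -0.29, SE 0.0788, adjusted p = 0.0154). That fall was small, though the groups did not overlap, and on the scale of library totals the value was -0.03 with an adjusted p of 0.777. It also did not pass with upper-quartile factors (0.0919) or without control 1 (0.0529) or control 2 (0.0575).

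Fzd4, the receptor of Norrin as well as of Wnt ligands, did not pass. It measured 455, 746 and 753 CPM in controls and 529, 472, 556 and 482 CPM in the KO (log2 fold change -0.35, adjusted p = 0.132). Control 1 lay below every KO library, and without it the log2 fold change was -0.56 with an adjusted p of 0.0115. Fzd6, a receptor tied mainly to planar polarity, measured 54.4, 38.8 and 38.3 CPM in controls and 51.1, 45.9, 64.5 and 57.04 CPM in the KO (log2 fold change 0.32, adjusted p = 0.122), and here control 1 was the high control. Without control 1 its adjusted p was 0.025, and with library totals 0.0126. Fzd5 stood at 13.3, 10.8 and 12.5 CPM in controls and at 28.1, 25.1, 14.3 and 12.1 CPM in the KO. KO 1 and KO 2 lay above all other libraries and KO 3 and KO 4 near the controls (log2 fold change 0.71, adjusted p = 0.0696). The markers of dissociation stress, immediate-early genes such as Jun and Zfp36, summed to 24620 and 19390 CPM in KO 1 and KO 2, to 11960 and 14530 CPM in KO 3 and KO 4 and to 8154 to 10550 CPM in controls. Their part in the Fzd5 values was not tested. Fzd5 passed in 7 of 18 alternative fits, among them library totals (adjusted p = 0.0183) and the fit without KO 4 (0.023).

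**Figure D2:**
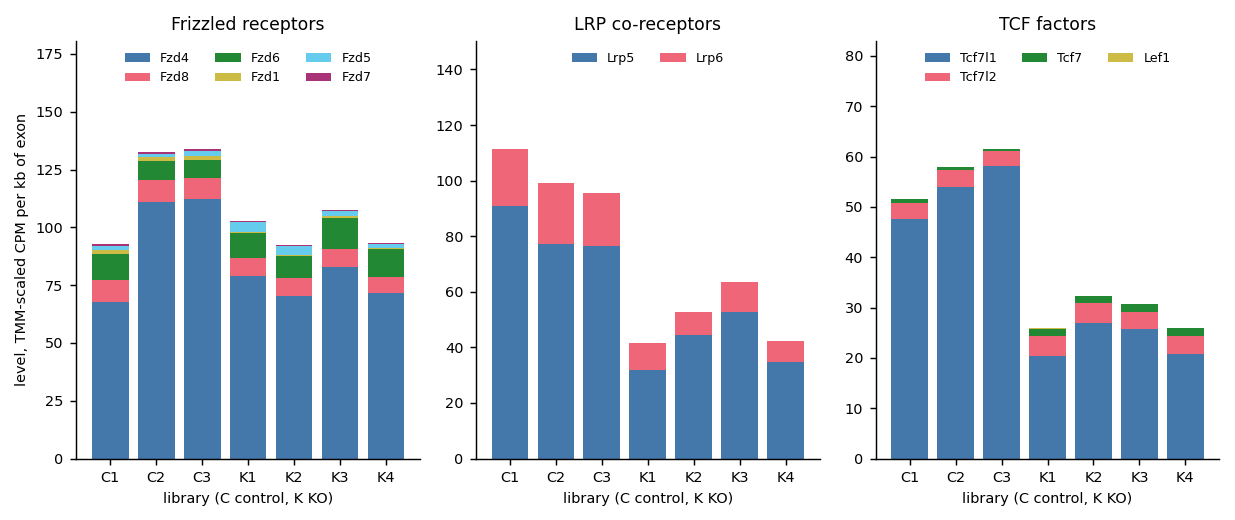
Stacked level, in TMM-scaled CPM per kilobase of exon (y axis), of Frizzled receptors, LRP co-receptors and TCF factors in each library (x axis, C1 to C3 control, K1 to K4 KO). Fzd4 forms most of every Frizzled bar, and the LRP and TCF bars of all 4 KO libraries are shorter than those of all 3 controls, 41.5 to 63.5 against 95.7 to 111 for LRP and 25.9 to 32.2 against 51.6 to 61.5 for TCF.

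Among the 5 genes of the co-receptors and of proteins that assemble around Frizzled, 3 fell and 0 rose. The share changed was 60.0%, beside 45.2% of all genes tested. LRP5 and LRP6 are the single-pass co-receptors that hand the signal to Axin. Lrp5 (chromosome 19, 3584828 to 3686564, minus strand) measured 884, 751 and 743 CPM in controls and 309, 431, 513 and 337 CPM in the KO. This was a log2 fold change of -0.996 (SE 0.180, adjusted p = 0.0021). Lrp6 (chromosome 6, 134446476 to 134566965, minus strand) measured 281, 300 and 265 CPM in controls and 134, 114, 149 and 106 CPM in the KO, a log2 fold change of -1.17 (SE 0.126, adjusted p = 1.38e-04). For both genes the groups were far apart. Per kilobase, Lrp5 was the higher of the pair in every library and held 79.7% ± 1.83 of their sum in controls and 81.3% ± 3.41 in the KO, a difference within the spread. Their summed level was 102 ± 8.24 CPM per kb in controls and 49.98 ± 10.3 in the KO.

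Adgra2, also called Gpr124, is the adhesion receptor that with the anchored protein Reck lets brain endothelium respond to Wnt7 ligands. Adgra2 measured 351, 367 and 399 CPM in controls and 172, 232, 261 and 181 CPM in the KO (log2 fold change -0.82, SE 0.153, adjusted p = 0.00254), with no overlap. Reck was low and did not pass, with 1.86, 2.75 and 4.65 CPM in controls and 4.32, 3.16, 5.09 and 5.05 CPM in the KO (adjusted p = 0.201). Without control 3, the highest control, its adjusted p was 0.0326. The levels of the partners also differed, Adgra2 at 64.5 ± 4.23 and Reck at 0.646 ± 0.299 CPM per kb in controls. Tspan12, the tetraspanin that strengthens Norrin signalling through Fzd4, measured 65.1, 74.1 and 69.0 CPM in controls and 37.5, 54.8, 68.3 and 51.6 CPM in the KO (log2 fold change -0.39, adjusted p = 0.0902). KO 3 reached the control range, and without KO 3 the adjusted p was 0.0126, as it was 0.0219 in lane 5 alone. Lrp5 and Adgra2 had the same order over the KO libraries as the summed pan-endothelial markers, lowest in KO 1, then KO 4, KO 2 and KO 3, at 14080, 15110, 16950 and 19770 CPM. That order was found in 29.9% of all genes that fell, and its part in these falls was not tested.

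Most transducers inside the cell did not pass. Of the 7, Dvl1 rose and Gsk3b fell, a share changed of 28.6% beside 45.2% of all genes tested. Gsk3b, the kinase that marks beta-catenin for degradation, measured 120, 141 and 137 CPM in controls and 89.7, 95.9, 109 and 86.4 CPM in the KO (log2 fold change -0.48, SE 0.103, adjusted p = 0.00512). No KO library reached a control, yet with library totals the log2 fold change was -0.22 and the adjusted p 0.0624. Dvl1, the most abundant Dishevelled gene, measured 157, 162 and 173 CPM in controls and 250, 234, 170 and 218 CPM in the KO (log2 fold change 0.41, SE 0.134, adjusted p = 0.0332). KO 3 lay within the control range. Dvl1 had the order of the summed dissociation stress markers over the KO libraries, highest in KO 1, then KO 2, KO 4 and KO 3, as had 10.8% of all genes that rose. The part of such stress in the Dvl1 rise was not tested. Leaving out any library but KO 3 ended the call, at adjusted p = 0.0624 to 0.106.

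Beta-catenin itself, Ctnnb1, had the highest mean level per length of all members, between 123 and 129 CPM per kb in controls and between 90.05 and 126 in the KO. It measured 660, 671 and 638 CPM in controls and 491, 517, 653 and 468 CPM in the KO (log2 fold change -0.30, SE 0.133, adjusted p = 0.0917). KO 3 lay among the controls and the other KO libraries below them. Without KO 3 the adjusted p was 0.00494 and in lane 5 alone 0.00908, while with library totals the log2 fold change was -0.04. The scaffold genes of the destruction complex did not pass: Apc had means of 261 ± 23.2 and 239 ± 29.5 CPM (adjusted p = 0.412) and Axin1 52.8 ± 2.43 and 46.1 ± 3.53 CPM (adjusted p = 0.0864). Axin1 passed in lane 5 alone (0.0483). Dvl2 had means of 24.1 ± 1.46 and 21.9 ± 3.11 CPM, and Dvl3 40.6 ± 0.217 and 46.9 ± 6.83 CPM. Dvl3 passed with library totals (0.00836) and upper-quartile factors (0.0412). Exons of Acadvl on the other strand cover 18.3% of the Dvl2 exon length, so reads of that pair cannot be told apart if the counting ignored strand.

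Of the 4 TCF genes Tcf7l1 fell, Tcf7 rose, Tcf7l2 did not pass and Lef1 was not tested. Tcf7l1, also called Tcf3, is the family member best known as a repressor of Wnt targets. Tcf7l1 (chromosome 6, 72626378 to 72789254, minus strand) was the main TCF gene of these cells and measured 187, 212 and 229 CPM in controls and 79.8, 106, 101 and 81.6 CPM in the KO. This was a log2 fold change of -1.18 (SE 0.127, adjusted p = 1.31e-04), and every KO library was below every control. Tcf7, which codes for TCF1, rose from a low level. It measured 2.26, 1.46 and 1.23 CPM in controls and 3.64, 3.35, 4.34 and 3.90 CPM in the KO (log2 fold change 1.20, SE 0.244, adjusted p = 0.0039), again with no overlap. TCF1 is also a T cell factor. Of 14 T and NK cell markers 1 passed the filter, Lck, which did not pass the test, and the summed level was 10.6 to 13.1 CPM in controls and 10.8 to 14.4 CPM in the KO. The most abundant genes of that list were Lck and Cd4, and Cd3e lay between 0 and 0.0728 CPM in the 7 libraries. The part of T cells in the Tcf7 rise was not tested.

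Tcf7l2, or TCF4, did not pass, at 27.6, 30.6 and 24.7 CPM in controls and 36.0, 34.4, 30.2 and 31.3 CPM in the KO (log2 fold change 0.26, adjusted p = 0.0725). It rose with library totals (adjusted p = 0.00288), with upper-quartile factors (0.0154) and without KO 3 (0.0468). Lef1 had 7 counts over the controls and 11 over the KO libraries. Per kilobase, Tcf7l1 made up 93.3% ± 1.25 of the summed TCF level in controls and 81.6% ± 2.47 in the KO. Tcf7l2 made up 5.56% ± 0.856 and 13.3% ± 2.05, and Tcf7 1.13% ± 0.476 and 5.11% ± 0.785. These shares need no scaling between libraries, and they did not overlap between the groups for any of the 3 genes. They depend on each other, as the fall of Tcf7l1 alone raises the shares of the rest. The level of Tcf7l2 itself was 3.15 ± 0.339 CPM per kb in controls and 3.76 ± 0.306 in the KO, and its libraries overlapped. The summed TCF level was 57.03 ± 5.01 CPM per kb in controls and 28.7 ± 3.31 in the KO. BCL9 and BCL9L bind beta-catenin in the nucleus. Bcl9 had means of 34.3 ± 3.51 and 30.8 ± 0.549 CPM (adjusted p = 0.177) and Bcl9l 119 ± 6.92 and 133 ± 4.87 CPM (adjusted p = 0.135). Bcl9l passed with library totals (0.00207) and upper-quartile factors (0.0134), and Bcl9 had a log2 fold change of -0.16 with TMM and a highest value of 0.11 over the 18 alternatives.

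Genes that Wnt signalling itself induces, most of them brakes on the pathway, went both ways. Of 9 members 2 rose, 3 fell, 2 did not pass and 2 were not tested. Among those tested 71.4% changed, beside 45.2% of all genes tested. The largest change of any tested member was in Notum, which codes for a secreted enzyme that removes the lipid from Wnt ligands. Notum (chromosome 11, 120653788 to 120661175, minus strand) measured 0.218, 0.208 and 0.351 CPM in controls and 7.32, 6.71, 4.45 and 6.79 CPM in the KO. It was near silent in all controls, with 19 counts in total, and had 796 counts over the KO libraries, a 24.2-fold difference (log2 fold change 4.60, SE 0.303, adjusted p = 1.33e-05). Per kilobase the KO level was still low, 2.62 ± 0.529 CPM. Exons of the antisense gene Notumos cover 29.4% of the Notum exon length. Notumos had 0 counts in every control and 33, 35, 32 and 39 counts in KO 1 to 4, in all 17.5% of the KO counts of Notum. The strand setting of the counting is unknown here, and reads from the shared stretch cannot be assigned.

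Apcdd1, a membrane inhibitor that binds Wnt ligands and LRP5 and is a known beta-catenin target in brain endothelium, also rose. It measured 1.17, 1.71 and 5.13 CPM in controls and 12.6, 11.4, 13.9 and 12.8 CPM in the KO (log2 fold change 2.26, SE 0.426, adjusted p = 0.00265). The KO libraries were alike and control 3 stood above the other controls. Control 3 was also highest in fibroblast markers, at a sum of 156 CPM beside 8.81 and 29.9 CPM in controls 1 and 2, and in mesothelial markers, at 65.6 beside 15.2 and 19.4 CPM. The part of such cells in the Apcdd1 value of control 3 was not tested. Without control 3 the difference was 8.82-fold rather than 4.80-fold, and in lane 5 alone, which also lacks it, 8.31-fold.

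The Naked cuticle genes, whose products bind Dishevelled and dampen the signal, both fell. Nkd1 (chromosome 8, 88521354 to 88594884, plus strand) measured 144, 147 and 171 CPM in controls and 35.0, 55.9, 55.4 and 39.1 CPM in the KO (log2 fold change -1.73, SE 0.170, adjusted p = 8.48e-05). Nkd2 (chromosome 13, 73818534 to 73847631, minus strand) measured 29.3, 28.3 and 24.9 CPM in controls and 10.9, 11.1, 10.3 and 8.76 CPM in the KO (log2 fold change -1.42, SE 0.113, adjusted p = 3.19e-05). In both genes every KO library was far below the lowest control. Nkd1 was the most abundant gene of this role per kilobase, with 33.8 ± 3.16 CPM for the controls and 10.2 ± 2.39 for the KO, and Nkd2 stood at 5.70 ± 0.476 and 2.13 ± 0.216.

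Axin2, a scaffold of the destruction complex and the most widely used readout of beta-catenin activity, was low in these cells. It measured 4.62, 4.75 and 5.09 CPM in controls and 3.15, 3.81, 2.94 and 3.16 CPM in the KO (log2 fold change -0.56, SE 0.164, adjusted p = 0.021). The groups did not overlap, but the call was lost in 9 of 18 alternatives, among them library totals (log2 fold change -0.30, adjusted p = 0.173) and the fits without control 2 (0.0589), control 3 (0.0656) or KO 4 (0.0515). Rnf43 and Znrf3, the membrane ubiquitin ligases that remove Frizzled from the surface, were low, with means of 0.638 ± 0.397 and 0.689 ± 0.309 CPM for Rnf43 and 0.655 ± 0.340 and 0.612 ± 0.179 CPM for Znrf3 (adjusted p = 0.848 and 0.886). Sp5, a target transcription factor, had 7 counts over the controls and 1 over the KO libraries, and the receptor gene Tnfrsf19 had 6 and 6. Neither was tested. Several of these genes are also Wnt targets in hepatocytes around the central vein. Pericentral hepatocyte markers summed to 563, 921 and 1067 CPM in controls and to 509 to 634 CPM in the KO libraries. Most of that sum was Glul, with means of 767 and 481 CPM. Of 7 tested 2 fell, Glul and Oat. Cyp2e1, Cyp1a2 and Cyp2c29 had log2 fold changes of 0.77, 1.34 and 1.17, and Slc1a2 and Lect2 of -0.51 and 0.12, none of which passed. The sum thus mostly follows Glul and not the list as a whole. Of the general hepatocyte markers 9 of 16 rose, as given above. The part of hepatocytes in the feedback genes' values was not tested.

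**Figure D3:**
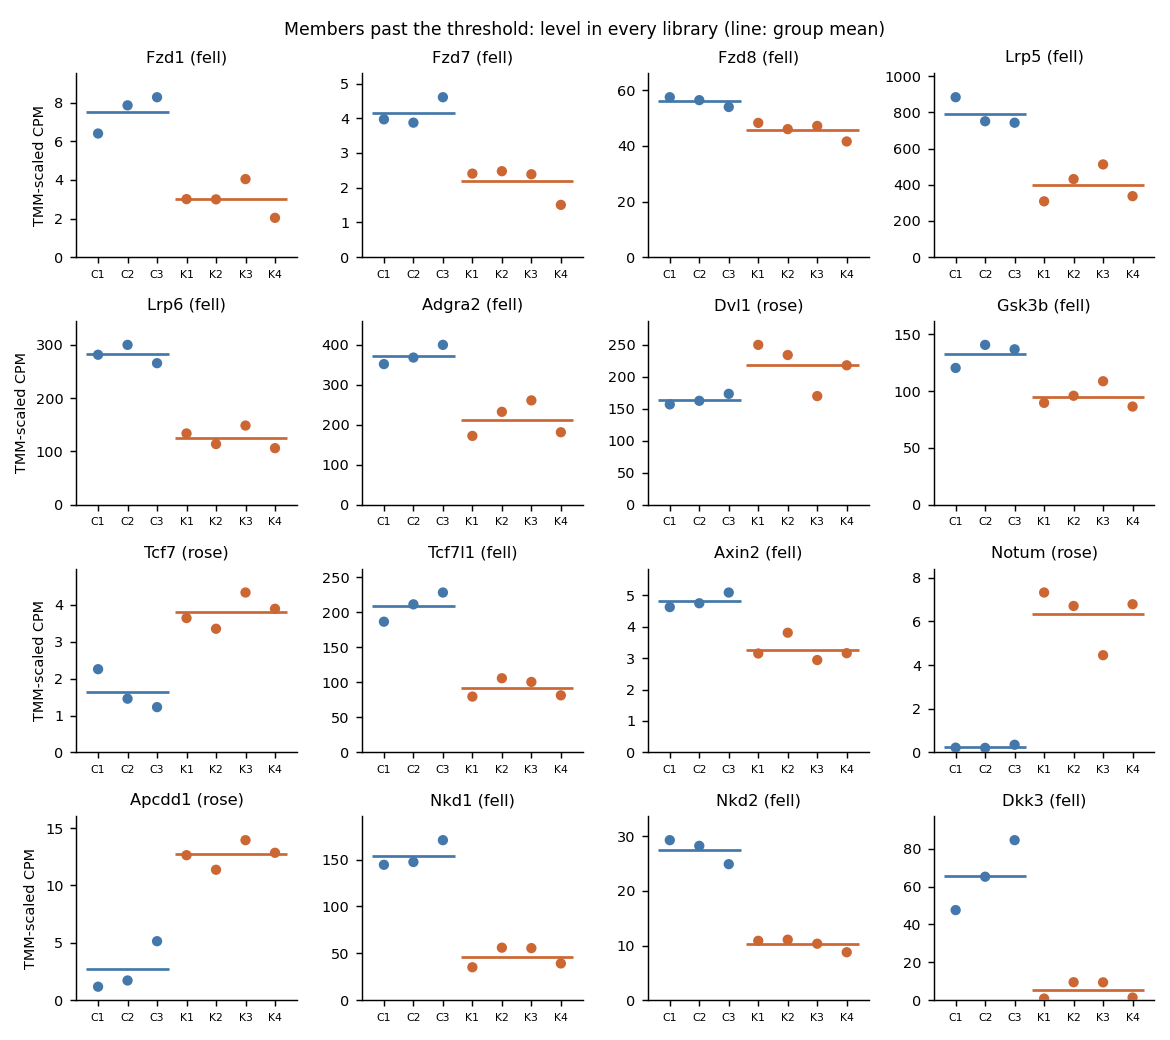
TMM-scaled CPM (y axis, linear from 0) in each library (x axis, C1 to C3 control in blue, K1 to K4 KO in orange) for the 16 members that rose or fell, with a line at each group mean. In 15 panels the orange and blue points do not overlap, and in the panel of Dvl1 the K3 point at 170 CPM lies within the control range. The panels were picked by the test on these same libraries, so the lack of overlap is no separate support. Over all tested genes the groups did not overlap in 50.3%.

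The 250 bases upstream of the transcript start, as RefSeq gives it on GRCm38.p6, are shown for the feedback genes that fell and for Fzd7, the 1 with a TCF motif among the 9 changed members that had a window. Those 9 were Axin2, Dvl1, Fzd1, Fzd7, Gsk3b, Nkd1, Nkd2, Tcf7 and Tcf7l1, and the windows of Notum, Dkk3, Apcdd1, Lrp5, Lrp6, Adgra2 and Fzd8 were not analysed here. They are written 5′ to 3′ on the gene's strand, with the match in capitals. The windows are chr1:59481897-59482146 on the plus strand for Fzd7, chr8:88527383-88527632 on the plus strand for Nkd1, chr13:73847632-73847881 on the minus strand for Nkd2 and chr11:108920099-108920348 on the plus strand for Axin2.
Fzd7: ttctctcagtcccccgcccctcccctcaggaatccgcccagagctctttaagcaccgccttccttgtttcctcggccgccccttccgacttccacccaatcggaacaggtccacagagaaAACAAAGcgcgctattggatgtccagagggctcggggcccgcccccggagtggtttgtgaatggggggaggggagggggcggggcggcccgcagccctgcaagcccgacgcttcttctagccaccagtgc
Nkd1: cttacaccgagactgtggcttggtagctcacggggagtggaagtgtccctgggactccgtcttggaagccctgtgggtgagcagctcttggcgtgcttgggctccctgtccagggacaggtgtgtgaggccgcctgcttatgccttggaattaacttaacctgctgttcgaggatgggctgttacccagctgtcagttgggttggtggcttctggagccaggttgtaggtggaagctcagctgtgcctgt
Nkd2: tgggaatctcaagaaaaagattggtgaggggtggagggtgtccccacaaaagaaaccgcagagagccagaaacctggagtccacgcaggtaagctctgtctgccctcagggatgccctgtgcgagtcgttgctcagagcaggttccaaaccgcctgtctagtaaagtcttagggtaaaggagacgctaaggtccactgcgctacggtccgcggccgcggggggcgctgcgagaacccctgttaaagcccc
Axin2: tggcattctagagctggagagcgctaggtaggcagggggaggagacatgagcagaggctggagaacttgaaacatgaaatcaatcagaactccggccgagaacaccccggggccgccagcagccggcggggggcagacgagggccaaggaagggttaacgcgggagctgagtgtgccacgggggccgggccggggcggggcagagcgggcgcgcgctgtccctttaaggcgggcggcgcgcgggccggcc
Windows were searched on both strands for the TCF motif, the letters CTTTG followed by a pair of bases that are each A or T, and for TGCTGAC, the core of the element that MAF proteins bind. Of the 44 members 28 had a window, 36 windows in all. A TCF match was found in 6 of the 36 member windows, 1 each of Fzd7, Lef1, Reck, Sp5, Tcf7l2 and Tnfrsf19, and in 14.8% of all 32851 windows. In Fzd7 it lay 130 to 124 bases upstream of the start, on the opposite strand. The MAF core was found in 1 of the 36 member windows, belonging to Lef1, and in 3.81% of all windows. The Nkd1, Nkd2 and Axin2 windows held neither. The Nkd1 window lies inside the gene's span in GENCODE. A match describes the letters and is not a measured binding site.

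Receptors for R-spondins, the ligands that protect Frizzled from RNF43 and ZNRF3, were low. Lgr4 measured 4.01, 6.20 and 7.81 CPM in controls and 7.39, 7.85, 6.96 and 10.2 CPM in the KO (log2 fold change 0.43, SE 0.235, adjusted p = 0.159). KO 1 and KO 3 lay within the control range and KO 2 and KO 4 above it, and Lgr4 passed only with library totals (0.0408) among the 18 alternatives. Lgr5 had 0 counts in every control, which allows up to 0.132 CPM in the shallowest, and 2, 1, 3 and 5 counts in KO 1 to 4. It was not tested.

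Among the secreted antagonists, 1 of 2 tested members fell. Dkk3 belongs to the Dickkopf family, although unlike its relatives it is not an established LRP5 and LRP6 antagonist. Dkk3 (chromosome 7, 112116017 to 112159057, minus strand) measured 47.6, 65.2 and 84.6 CPM in controls and 0.778, 9.44, 9.37 and 1.33 CPM in the KO. It had the largest fall of all tested members, 12.5-fold (log2 fold change -3.64, SE 0.690, adjusted p = 0.00271). KO 2 and KO 3 kept more Dkk3 than KO 1 and KO 4, as they did Maf, at 159 and 125 CPM beside 28.9 and 37.7 CPM. KO 1 and KO 4 lay below KO 2 and KO 3 in 6 of the 12 members that fell and in 64.8% of all genes that fell. Without KO 1 and KO 4 the Dkk3 difference was 6.98-fold (adjusted p = 3.25e-04), and with limma-voom 19.99-fold. Over the controls Dkk3 had the order of the fibroblast markers, whose sum was 8.81, 29.9 and 156 CPM in controls 1 to 3. In KO 1 to 4 that sum was 25.3, 20.2, 47.8 and 5.87 CPM. KO 1, KO 2 and KO 3 thus lay above control 1 in these markers and below it in Dkk3. Stellate cell markers summed to 311, 362 and 342 CPM in controls and to 119 to 216 CPM in the KO, and 9 of 11 tested fell, most of the sum being Ecm1 and Hgf. The part of such cells in the Dkk3 fall was not tested.

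The other antagonists were scarce. Frzb, a secreted Frizzled-related protein, measured 1.31, 1.29 and 1.01 CPM in controls and 0.849, 1.60, 1.22 and 1.27 CPM in the KO (log2 fold change 0.04, adjusted p = 0.925). Sfrp1 had 26 counts over the controls and 21 over the KO libraries and was not tested with all libraries. Its counts were 3, 13 and 10 in controls 1 to 3 and 4, 2, 8 and 7 in KO 1 to 4. Without control 1, the lowest control, Sfrp1 passed the filter and the test, with a log2 fold change of -1.56 (adjusted p = 0.0442). That call rests on few reads. Wif1 had no counts in any of the 7 libraries. Dkk2 had 1 count over the controls and 23 over the KO libraries, a ratio of 13.4 with a 95% exact counting interval of 2.18 to 553, and was not tested after filtering. With no filter on low counts edgeR gave an adjusted p of 0.026, and DESeq2 gave 0.047.

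The wider pathway was described with 108 other genes in 6 lists. Of these 83 were tested, 21 rose, 27 fell and 35 did not pass, a share changed of 57.8% beside 45.2% of all genes. Their median log2 fold change was -0.10. With library totals 32 rose and 11 fell, and without control 2 17 rose and 17 fell. Genes for the release of Wnt ligands mostly fell, 6 of 7, with 0 rises. Porcn, the enzyme that attaches the lipid to Wnt ligands, measured 15.2 CPM in each control and 4.99, 5.34, 7.62 and 5.16 CPM in the KO (log2 fold change -1.39, SE 0.163, adjusted p = 2.08e-04). Wls, the carrier of lipidated ligands, fell from 219 ± 19.1 to 107 ± 22.7 CPM. Both genes thus stood lower in every KO library than in any control. Vps29 and Vps26a, of the retromer that recycles Wls, fell 1.53- and 1.90-fold.

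Planar polarity genes and other Wnt receptors changed in 12 of 14 tested (85.7%, beside 45.2% of all genes tested), 4 upward and 8 downward. Gpc4, a heparan sulfate proteoglycan that binds Wnt ligands, stood at 17.4 ± 3.17 CPM in controls and 4.35 ± 0.538 CPM in the KO, a log2 fold change of -2.003 (adjusted p = 3.37e-05). Ptk7, a pseudokinase co-receptor, fell 3.22-fold. Celsr2, a flamingo-type cadherin, rose from 0.400 ± 0.0649 to 2.91 ± 0.722 CPM and Prickle3 rose 2.81-fold. Among 6 other inhibitors tested, 2 rose and 2 fell (66.7% changed). The Dickkopf receptor genes went opposite ways, Kremen1 from 126 ± 5.59 down to 65.6 ± 7.52 CPM and Kremen2 from 0.726 ± 0.0666 up to 1.70 ± 0.204 CPM. Draxin, at 0.131 ± 0.0757 and 0.425 ± 0.188 CPM, and Shisa3, at 0.593 ± 0.0181 and 0.339 ± 0.0417 CPM, passed at very low levels.

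Cytoplasmic partners changed in 7 of 19 tested (36.8%, beside 45.2% of all genes tested), 4 upward and 3 downward. Frat2, which binds glycogen synthase kinase 3 and keeps it from Axin, rose 2.35-fold, and the Dishevelled partner Dact1 rose 2.41-fold from 6.70 ± 1.58 CPM. The casein kinase genes Csnk1g1 and Csnk1e rose 1.31- and 1.30-fold. Of 19 tested nuclear partners 3 rose and 6 fell (47.4% changed, near the share of all genes). Tle3, a Groucho-type co-repressor, measured 70.4, 59 and 51.6 CPM in controls and 129, 161, 183 and 148 CPM in the KO (log2 fold change 1.37, SE 0.146, adjusted p = 1.31e-04). Ctnnbip1, also called ICAT, which blocks the binding of beta-catenin to TCF factors, rose 2.66-fold from 1.77 ± 0.204 CPM. Tbl1xr1 rose 1.37-fold and the co-repressor gene Tle4 fell 1.34-fold. Exons of genes on the other strand cover 25.8% of the Ctnnbip1 and 34.9% of the Dact1 exon length, so the limit given for Notum applies to them too.

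Of 18 tested genes widely used as transcriptional targets, 8 rose and 2 fell, with a median log2 fold change of 0.36. These are 44.4% and 11.1%, beside 23.0% and 22.2% of all genes tested. Myc rose 10.4-fold from 24.0 ± 3.59 to 250 ± 71.9 CPM and Birc5, which codes for survivin, rose 9.90-fold. Over KO 1 to 4 Myc measured 312, 294, 152 and 241 CPM, the order of the summed dissociation stress markers. That order was found in 10.8% of all genes that rose, and the part of such stress in the Myc rise was not tested. Birc5 is also on the cell cycle list, whose 16 genes all rose, and the immediate-early gene Jun, another of the 8, is also on the list of dissociation stress. Ppard rose 1.352-fold. Cldn5, a tight junction gene that beta-catenin is known to raise in brain endothelium, fell 2.52-fold from 701 ± 165.5 to 279 ± 54.4 CPM. Each of these genes answers to other pathways as well, and their counts say nothing of which acted here.

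**Figure D4:**
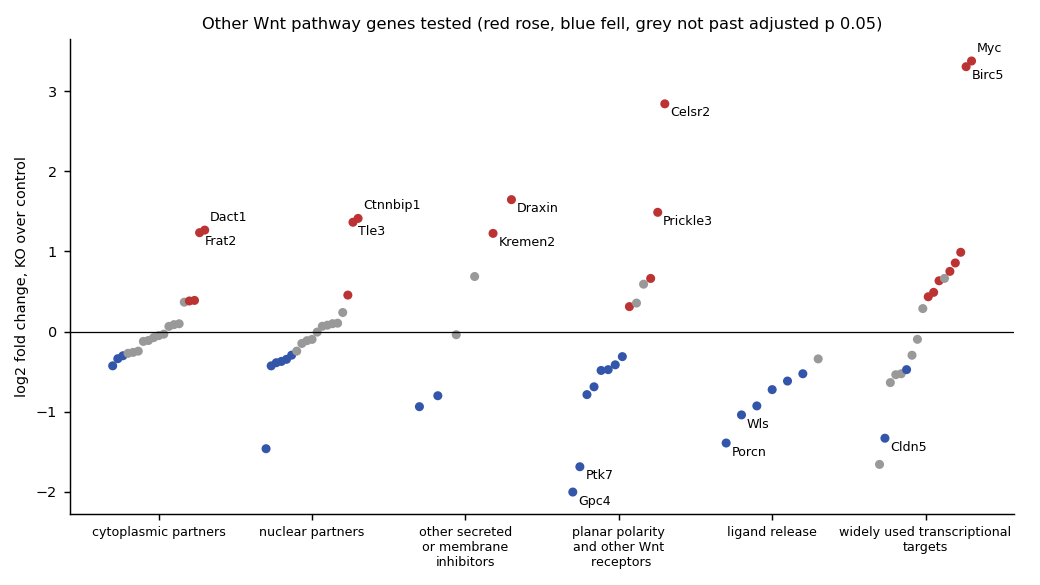
Log2 fold change of KO over control (y axis) of the 83 tested other Wnt pathway genes, a point for each gene, in 6 lists (x axis, genes sorted by value within a list); red points rose, blue fell and grey did not pass. Ligand release has no red point and 6 blue points of 7, while Myc and Birc5 lie highest at 3.38 and 3.31.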

How the data were processed

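The authors deposited raw read counts per Ensembl gene. The submitters' processing notes name FastQC 0.11.5, STAR 2.7.6a and genome build GRCm38, and per the labels' protocols libraries came from an unstranded or a stranded TruSeq kit. For the counting tool, annotation and strand setting, the choice made is not given in the sources used here. Symbols, coordinates and exon lengths came from GENCODE mouse release 21 (GRCm38), which matched 52489 of 52636 IDs. RefSeq supplied the promoter windows.

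Groups followed the titles in the labels. Counts were analysed in R 4.3.3 with edgeR 4.0.16: filterByExpr (minimum count 10, total 15) left 15512 genes, TMM factors ran from 0.877 to 0.921 for controls and from 1.04 to 1.14 for KO libraries, and the quasi-likelihood F-test had no covariate. SE was obtained as the size of the log2 fold change over the root of F. Levels per kilobase divide CPM by the union of a gene's exons. The limit for a count of 0 was taken as 3 counts, 0.0873 to 0.132 CPM. Limits and intervals reflect counting error alone, as reads are not independent molecules. Libraries of 1 group always differed beyond counting noise (chi-square over degrees of freedom 13.2 to 96.1). The test was checked on simulated counts.

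Members and lists were chosen with earlier results of these data known. Named genes are all 44 members, Maf, from each other pathway list up to 4 called genes of smallest p, and the 2 most abundant genes of marker lists. Cd3e, Acadvl, Notumos and Jun as a target were named after their values were seen. Alternatives were other scalings, filters, DESeq2 1.42.0, limma-voom (limma 3.58.1), the lane or replicate number as covariate, lane 5 alone and left-out libraries.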

Additional observations from a re-analysis of the deposited data

Results flagged for a closer look

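In KO 4, Fzd7 stood at 1.51 CPM, apart from the other KO libraries, the nearest of which was at 2.39 CPM and the farthest at 2.47 CPM. The gap was 0.909 of the whole range of the KO group, above Dixon's critical value of 0.829 for 4 libraries. It was the 1 value found over 33 tested members, where chance alone flags about 1 in 20 groups. Without KO 4 Fzd7 still fell, with a log2 fold change of -0.78 (adjusted p = 0.0147 by edgeR's quasi-likelihood test).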

How the results depend on the processing

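Of the 16 members that changed, 12 kept direction and call in every one of the 18 alternatives that tested them: Fzd1, Fzd7, Lrp5, Lrp6, Adgra2, Tcf7, Tcf7l1, Notum, Apcdd1, Nkd1, Nkd2 and Dkk3. Axin2, Dvl1, Fzd8 and Gsk3b lost the call in 9, 8, 6 and 1 alternatives, and no called member changed sign. Of the 17 that did not pass, 6 passed in no alternative. With library totals 10 members rose, 6373 of all genes rose and 1976 fell, and 32 other pathway genes rose and 11 fell. With upper-quartile factors 9 members rose. Without KO 1 and KO 4, 2234 of all genes rose and 17 other pathway genes fell. The share of rises among all calls was 50.8% with TMM, 76.3% with library totals and 63.4% with upper-quartile factors. Leaving out single libraries gave 3 to 6 rises and 10 to 14 falls among members, 2379 to 3769 rises and 2584 to 3930 falls among all genes, and 17 to 20 rises and 17 to 30 falls among other pathway genes, with 17 falls without control 2. Lane 5 alone gave 4 rises and 14 falls among members, and lane 4 held 1 library of each group. With the replicate block 4 members rose and 10 fell, and 2542 of all genes rose and 2627 fell. Deviations of same-numbered libraries correlated at -0.0133, 0.162 and 0.0674, and those of differently numbered libraries at -0.176 to 0.0781. The numbers were not taken as pairs, though so few values cannot settle whether they are. The 11 members under the filter on low counts had no test with all libraries, among which Dkk2 and Sfrp1 passed in the alternatives named beside them.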
